A study of Zea mays with 4 samples.

Results

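Crown root (CR) was compared with the later primary root (PRO) of maize (Zea mays, cultivar Zhengdan 958), both taken from seedlings 15 days after germination. The crown root is a young root that forms from the shoot after germination, and the primary root is the embryonic root that emerges first. Each group was 1 small RNA library, made from the terminal 1 cm of roots of seedlings grown in Hoagland's solution with no treatment named. The crown roots were about 3 to 5 cm long, and the length of the later primary roots is not given in the sources used here. Root type and developmental stage therefore differ together between these libraries and cannot be told apart. Early primary root (PRY, 3 days) and seminal root (SR, 7 days), a second embryonic root type, had 1 library each and are given as values beside them. All 4 libraries came from the same hybrid cultivar and the same protocol.

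Compared were the miRNAs that reached 10 RPM (reads for every 1000000 reads of the library total) in CR or PRO, which were 95 of the 576 entries in the deposited table. Of these, 84 were known miRNAs of 17 families and 11 were candidates predicted by the authors. Entries of a family with equal values in all 4 libraries cannot be told apart, and with them counted once 76 remained. Both libraries held 10 RPM or more of 83 entries, PRO alone of 11 and CR alone of 1. Just inside the minimum were miR160a-3p and miR166a-5p, each at 10.5 RPM in PRO. Just outside were a candidate at 9.98 RPM in CR and miR169a-3p at 8.42 RPM in CR.

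Plant miRNAs are cut from a hairpin precursor as a duplex of a 5p and a 3p strand, of which usually one is kept in an AGO protein and the other, the star strand, is lost. The kept strand pairs with target transcripts and leads to their cleavage or reduced translation. In plants the conserved families mostly act on transcription factors: miR156 on SPL genes and miR172 on AP2-like genes in the change from juvenile to adult growth, miR160 and miR167 on auxin response factors, miR164 on NAC genes and miR166 on class III HD-ZIP genes. Other families act on metal and nutrient use or on the silencing machinery itself.

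The library totals behind the values were 10920069 reads for CR and 11057522 for PRO, so 1 read was worth 0.0916 and 0.0904 RPM. With 1 library a side there is no spread between replicates, no test was possible, and each difference is one between 2 libraries. Intervals in parentheses are 95% exact intervals for counting error only. A miRNA was counted as higher or lower in CR when log2(RPM + 1) differed by at least 1, a 2-fold difference on that scale. Folds are ratios of reads scaled to the totals. In bulk tissue, fewer cells of a type and less RNA per cell cannot be told apart. As a check for reproductive tissue alone, miR2118 and miR2275, which act in reproductive organs, were read. Of their 15 entries, 13 were at 0 in both libraries, and miR2118c had 1 read in PRO and 0 in CR. These families do not bear on shoot tissue.

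In CR 27 of the 95 miRNAs were lower than in PRO, 3 were higher and 65 were neither. That is 28.4% lower, 3.16% higher and 31.6% in either direction. With equal entries counted once, 21 of 76 were lower (27.6%) and 2 higher (2.63%), which makes 30.3% in either direction. Scaled to TMM factors instead of the library total, 13 of the 95 were lower and 5 higher, and scaled to the sum of distinct miRNA entries, 10 were lower and 10 higher. That sum takes reads shared by nearly equal entries more than once. The sum of each family's highest entry also gave 10 lower and 10 higher. Of the lower ones 5 of 27, and of the higher ones 1 of 3, reached the minimum only in the library where they were high. The median log2 ratio over the 95 was -0.31, and 72 of them lay below 0. The lower ones were both miR528 5p entries, all 6 entries of miR172, 12 of 13 entries of miR156, 3 entries of miR169 (all 3p), both entries of miR390, miR164e-5p and 1 candidate. The higher ones were miR167h-3p and miR167i-3p, which had the same values, and 1 candidate.

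**Figure D1:**
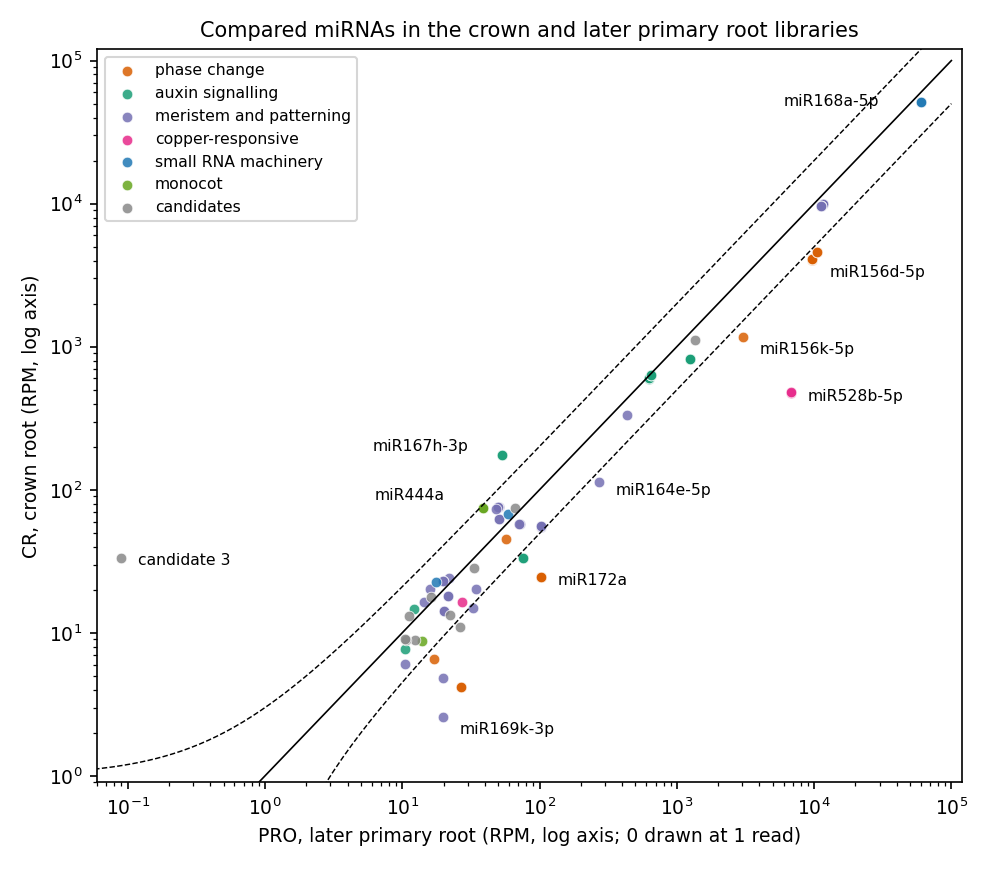
Level of each of the 95 compared miRNAs in CR (vertical axis, RPM, log scale) against PRO (horizontal axis, RPM, log scale), coloured by family list. The solid line marks equal levels and the dashed lines the 2-fold limits on log2(RPM + 1). miR528b-5p, at 6830 RPM in PRO and 479.2 in CR, lies far below the line, and miR167h-3p lies above it.

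Scaling bears on every ratio. The highest entries of the known families added up to 91230 RPM in PRO and 67681 in CR, which is 9.12% and 6.77% of the totals. Of the summed difference of -23549 RPM, miR168a-5p made up 37.3%, miR528b-5p 27.0%, miR156d-5p 25.3% and miR166a-3p 7.28%. When ratios were set relative to miRNA reads instead of the library total, every one moved upward. The median shifted by 0.19 with DESeq2 size factors, 0.25 with TMM factors and up to 0.75 with the sum of distinct entries without miR168. Of the 27 lower miRNAs, 10 stayed counted as lower in all 7 scalings: the entries of miR528 and miR172, miR169i-3p and miR169k-3p. All 27 kept a negative sign, and the 3 higher ones were counted as higher in all 7. As the other 6 scalings moved every ratio upward, they could only add to the higher calls. Of the 65 counted as neither, 38 changed sign in at least 1 scaling.

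**Figure D2:**
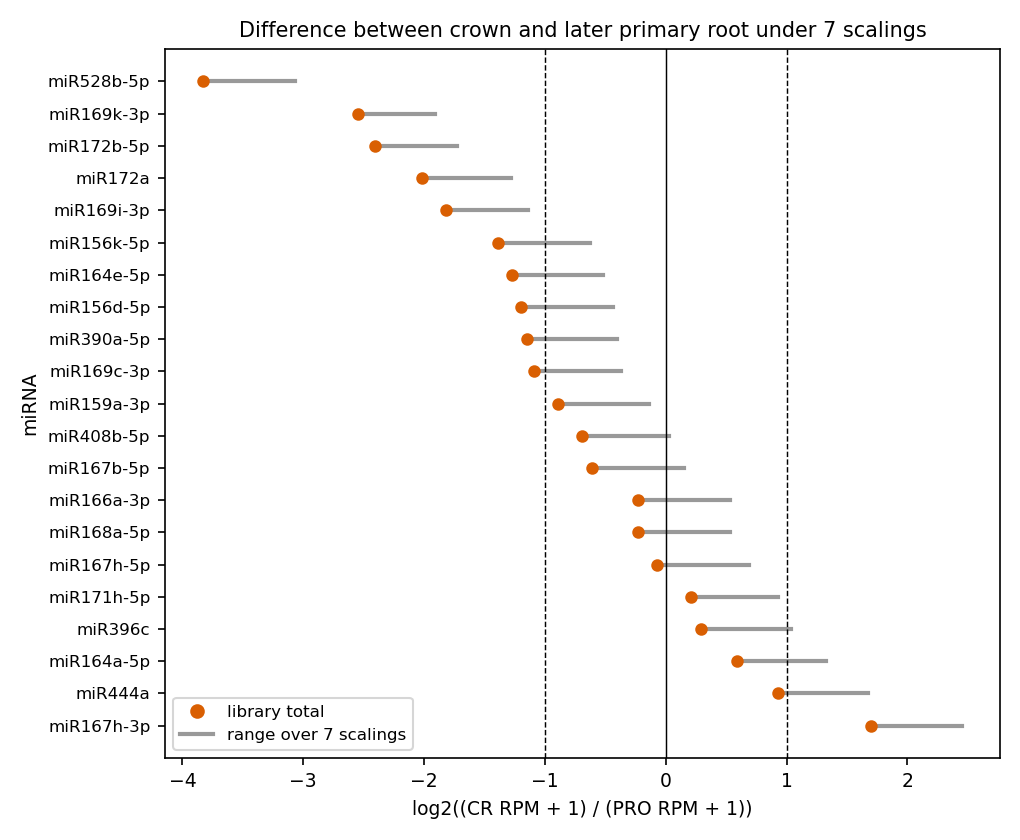
The log2 ratio of CR to PRO for 21 miRNAs (horizontal axis), with a point for the library total and a bar for the range over 7 scalings; the solid line marks 0 and the dashed lines the 2-fold limits. miR528b-5p spans -3.83 to -3.07 and stays below the lower limit, while miR156d-5p spans -1.20 to -0.44 and crosses it.

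The phase change list held 19 compared miRNAs, of which 18 were lower in CR, 0 higher and 1 neither. Over all 95 miRNAs, 27 were lower (28.4%) and 3 higher. With equal entries counted once the list held 14. Most miR156 entries had nearly the same reads, so these entries are not separate observations. The median of the list was -1.24, against -0.31 over all 95. In the other scalings the number lower was 18 with DESeq2 factors and between 6 and 8 with the rest, while the median stayed negative, at -0.48 or lower. miR172a had 24.6 RPM in CR, 102.9 in PRO, 50.2 in SR and 18.5 in PRY. PRO was the highest of the 4 libraries, and CR lay near PRY. Between the roots of equal age, miR172a was 4.18-fold lower in CR (3.65 to 4.79), and miR172b-3p, miR172c-3p and miR172d-3p had the same values. The opposite strand miR172b-5p was at 4.21 RPM in CR and 26.7 in PRO, and at 11 in SR and 2.52 in PRY. It was 6.33-fold lower in CR (4.63 to 8.84), on 46 against 295 reads, and miR172d-5p nearly equalled it.

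miR156d-5p, the most abundant entry of its family, had 4576 RPM in CR, 10527 in PRO, 8807 in SR and 20801 in PRY. CR was the lowest library and PRY the highest, unlike miR172a, for which PRY was the lowest. miR156d-5p was 2.30-fold lower in CR than in PRO (2.28 to 2.32). Another 9 entries of the 5p strand, and miR156c, lay between -1.39 and -1.20 on the log2 scale, and apart from miR156k-5p their levels were close to that of miR156d-5p. miR156d-5p and miR156e-5p, the second at 9603 RPM in PRO and 4058 in CR, were counted as lower in 2 of the 7 scalings. miR156l-5p differed from miR156e-5p by 4 reads in PRO and 1 in CR.

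miR156k-5p had a different order of libraries, with 1163 RPM in CR, 3040 in PRO, 1332 in SR and 965.9 in PRY. It was highest in PRO and lowest in PRY, as miR172a was. In CR it was 2.61-fold lower than in PRO (2.56 to 2.67), and this was counted as lower in 4 of 7 scalings. Its level relative to miR156d-5p, which no scaling touches, was 0.289 in PRO (0.285 to 0.292) and 0.254 in CR (0.249 to 0.259), against 0.0464 in PRY. The star strand miR156b-3p stood at 6.59 RPM in CR and 17.0 in PRO, and at 20.3 in SR and 47.6 in PRY. It was 2.58-fold lower in CR than in PRO (1.96 to 3.43), close to its 5p partner. miR156j-5p was the entry not counted, with 57.1 RPM in PRO and 45.1 in CR, and its sign turned in 4 of the other 6 scalings. Reads of miR156d-5p for every read of miR172a numbered 102.3 in PRO (96.5 to 108.5) and 185.8 in CR (164.8 to 210.2), with 175.4 in SR and 1126 in PRY.

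The copper-responsive list is made of families that act on transcripts of copper proteins. Among its 3 compared entries both of miR528 were lower in CR and miR408b-5p was neither, with a median of -3.83. Over all miRNAs, 27 of 95 were lower. miR528 is a family of monocots. miR528b-5p had 479.2 RPM in CR, 6830 in PRO, 4439 in SR and 1203 in PRY. PRO was the highest of the 4 libraries and CR the lowest. It was 14.3-fold lower in CR than in PRO (13.9 to 14.7), on 5233 against 75524 reads, and miR528a-5p gave the same fold. Among the highest entries of each family it ranked 4 in PRO and 5 in CR. For every read of miR168a-5p there were 0.114 reads of miR528b-5p in PRO and 0.00934 in CR. Its opposite strand miR528b-3p was rare, with 9 reads in PRO and 3 in CR.

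miR408b-5p, the star strand of a family that acts on plantacyanin and laccase transcripts, had 16.4 RPM in CR, 27.1 in PRO, 46.8 in SR and 3.45 in PRY. It was 1.66-fold lower in CR than in PRO (1.37 to 2.00), which is -0.69 on the log2 scale, and its sign turned in 1 of the other 6 scalings. The strand miR408b-3p was below the minimum, with 41 reads in PRO and 25 in CR, a ratio of 1.62 (0.962 to 2.78). miR398a-3p, which acts on copper/zinc superoxide dismutase transcripts, had 25 reads in PRO and 4 in CR, 6.17-fold lower (2.13 to 24.4). miR397b-3p had 12 and 6 reads, a ratio of 1.98 whose interval of 0.686 to 6.41 includes 1. The highest entries of these families, miR528b-5p, miR408b-5p, miR398a-3p and miR397b-3p, lay lower in CR with the library total, by ratios from 1.66 to 14.3. The opposite strand miR397b-5p had 1 read in PRO and 1 in CR. Only miR528 reached both the minimum and the 2-fold limit. For every read of miR408b-5p there were 251.7 reads of miR528b-5p in PRO (224.8 to 282.9) and 29.2 in CR (25.2 to 34.1).

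**Figure D3:**
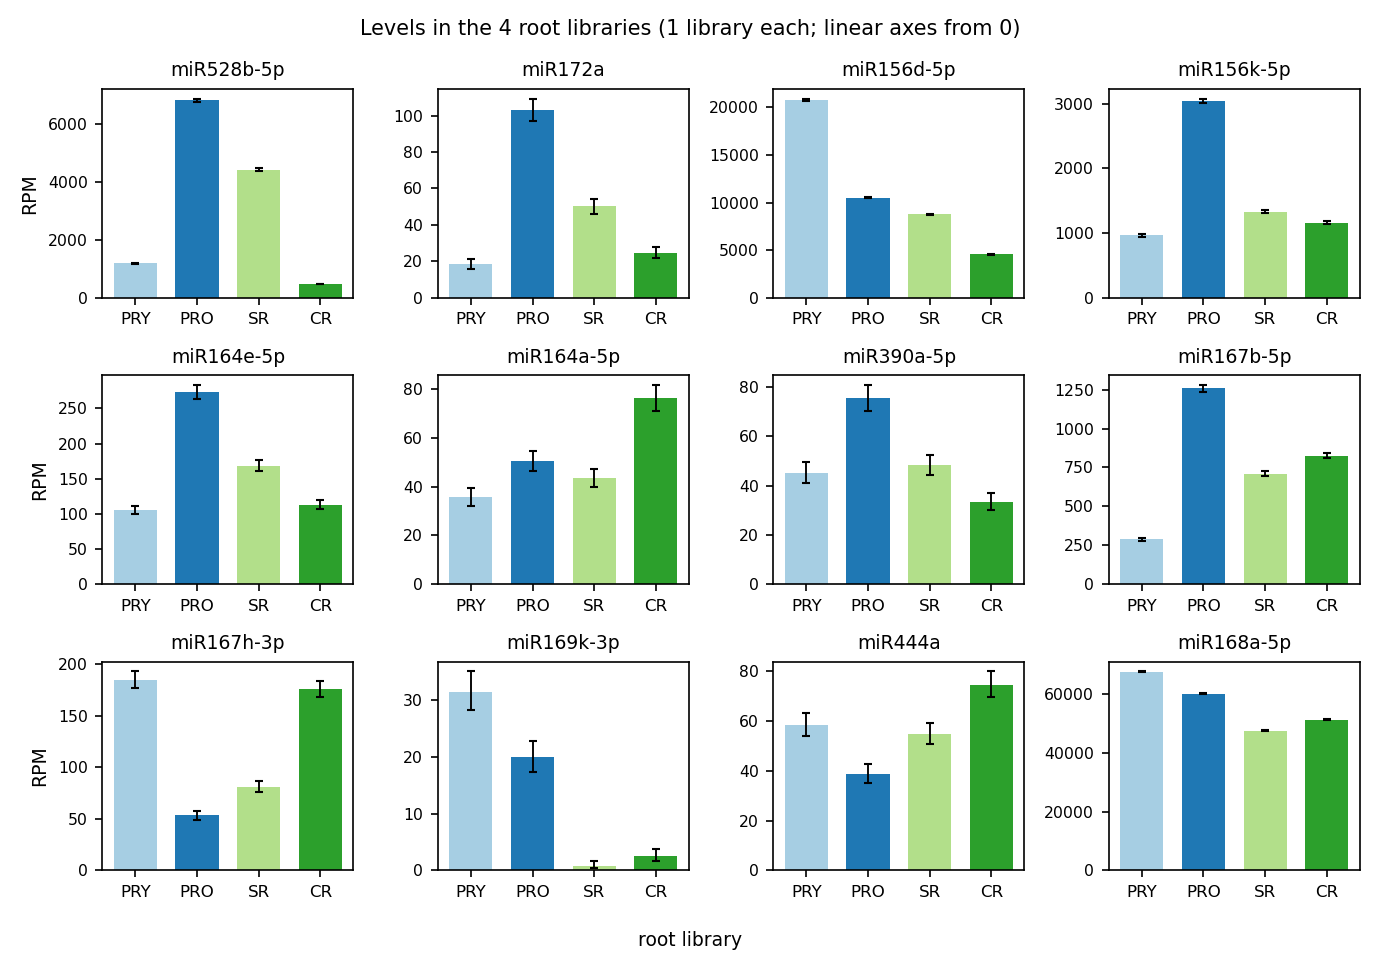
RPM of 12 miRNAs (vertical axes, linear, each from 0) in the 4 libraries PRY, PRO, SR and CR, 1 library each; bars are levels and lines 95% exact Poisson intervals. miR528b-5p, miR172a, miR156k-5p, miR164e-5p, miR390a-5p and miR167b-5p are highest in PRO, miR164a-5p and miR444a are highest in CR, and miR167h-3p and miR444a are lowest in PRO.

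The auxin signalling list held 16 compared miRNAs. Of these, 2 were higher in CR, 2 lower and 12 neither, beside 3 higher and 27 lower of 95 over all miRNAs. The median of the list, -0.07, turned positive in all 6 other scalings. miR167 5p strands fell into 2 sets of values. In the first, miR167b-5p had 826.2 RPM in CR, 1258 in PRO, 709 in SR and 287.8 in PRY, and the a, c and d entries were nearly equal to it. It was 1.52-fold lower in CR than in PRO (1.48 to 1.56), short of the 2-fold limit, and turned sign in 1 of the other 6 scalings. In the second set, miR167h-5p stood at 600.3 RPM in CR and 628.4 in PRO, with 415.4 in SR and 373.4 in PRY, and the e, f, g, i and j entries were close to it. In CR it was 1.05-fold lower (1.01 to 1.08), and its sign turned in all 6 other scalings. The ratio of miR167b-5p to miR167h-5p was 2.00 in PRO (1.94 to 2.06) and 1.38 in CR (1.33 to 1.42), against 0.771 in PRY.

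Of the second set, the 3p products of the h and i entries were counted as higher in CR, and those of e, f, g and j were below the minimum. miR167h-3p and miR167i-3p had the same reads, with 175.8 RPM in CR, 53.3 in PRO, 81.0 in SR and 184.7 in PRY. PRO was the lowest library, and CR lay close to PRY. The ratio of CR to PRO was 3.30 (3.01 to 3.63), on 1920 against 589 reads. As a share of the 5p and 3p reads of miR167h, the 3p product was 7.81% in PRO (7.22 to 8.44) and 22.7% in CR (21.8 to 23.6), with 33.1% in PRY and 16.3% in SR. Reads of the 5p strand can come from several precursors of the set, so this share is that of 2 entries and not of 1 precursor. miR167b-3p, of the first set, was at 12.1 RPM in PRO and 14.7 in CR, a ratio of 1.21 (0.955 to 1.53).

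miR390a-5p, which starts the production of small RNAs from TAS3 transcripts that act on auxin response factors, had 33.5 RPM in CR, 75.4 in PRO, 48.2 in SR and 45.1 in PRY. PRO was the highest library and CR the lowest. It was 2.25-fold lower in CR (1.99 to 2.55), and miR390b-5p had the same values. With -1.15 on the log2 scale it lay just inside the limit, and it was counted as lower with the library total alone. miR160a-3p, the only compared entry of miR160, was at 10.5 RPM in PRO and 7.69 in CR, 1.36-fold lower (1.02 to 1.83), and turned sign in 2 of the other 6 scalings. No entry of miR393, which acts on auxin receptor transcripts, reached the minimum, and its highest level was 3.57 RPM in CR and 3.44 in PRO.

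In the meristem and patterning list 4 of 39 miRNAs were lower in CR, 0 higher and 35 neither, beside 27 lower of 95 over all miRNAs. Its median was -0.23 and became positive in 5 of the other 6 scalings. miR164 was split. miR164e-5p had 112.6 RPM in CR, 273.1 in PRO, 168.3 in SR and 105.4 in PRY, 2.42-fold lower in CR than in PRO (2.27 to 2.59), and was counted as lower in 3 of 7 scalings. miR164a-5p stood at 76.2 RPM in CR, against 50.3 in PRO, 43.3 in SR and 35.7 in PRY. Here CR was the highest library, 1.52-fold above PRO (1.36 to 1.69), and the b, c, d and g entries were nearly equal to it. These 5 entries were counted as neither with the library total and as higher in 3 other scalings. Within a library, the ratio of miR164e-5p to miR164a-5p was 5.43 in PRO (4.96 to 5.96) and 1.48 in CR (1.35 to 1.62), with 2.95 in PRY and 3.89 in SR.

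miR169, which acts on transcripts of NF-YA subunits, differed by strand. miR169k-3p had 2.56 RPM in CR, 19.9 in PRO, 0.864 in SR and 31.4 in PRY. Both primary root libraries were high, and the seminal and crown root libraries were low. It was 7.76-fold lower in CR than in PRO (5.22 to 11.9), on 28 against 220 reads. miR169i-3p was likewise high in PRY and PRO, at 22.4 and 19.7 RPM, and low in SR and CR, at 0.346 and 4.85 RPM. It was 4.06-fold lower in CR (3.00 to 5.59). The 5p strands of these precursors, below the minimum, were not lower with the library total: miR169k-5p had 40 reads in PRO and 52 in CR, and miR169i-5p had 41 and 53, with intervals of the ratio that include 1. The 3p share of miR169k was 84.6% in PRO (79.6 to 88.8) and 35.0% in CR (24.7 to 46.5), and that of miR169i was 84.2% in PRO (79.1 to 88.4). In CR the strands of miR169i were equal, with 53 reads each, and the interval of the 3p share was 40.1% to 59.9%. The 5p reads of miR169i and miR169k were nearly the same. Their shares are thus those of pairs of entries and are not separate observations.

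miR169c-3p was at 33.0 RPM in PRO and 14.9 in CR, 2.21-fold lower (1.83 to 2.68), and was counted with the library total alone. miR169c-5p, the highest entry of the family, was at 71.6 RPM in PRO and 57.6 in CR, 1.24-fold lower (1.12 to 1.38), and its sign turned in 4 of the other 6 scalings. SR was the lowest library for both strands, with 12.1 RPM of the 3p and 29.1 RPM of the 5p. miR169a-5p was 1.27-fold higher in CR (1.04 to 1.56), at 20.3 against 16.0 RPM. The 3p strands of miR169i and miR169k reached the minimum in PRO alone, so their difference went into their selection. miR169a-3p, below the minimum in both libraries, had 91 reads in PRO and 92 in CR.

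**Figure D4:**
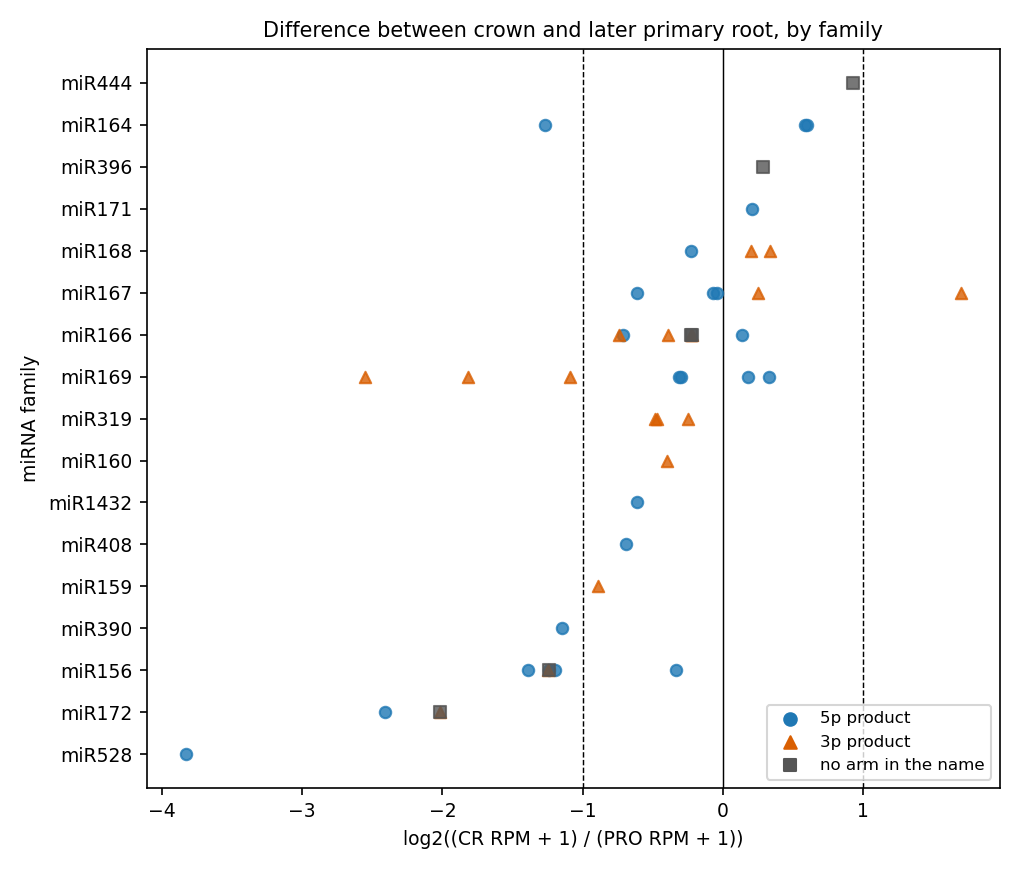
The log2 ratio of CR to PRO (horizontal axis) for each compared known miRNA, 1 line per family, with circles for 5p, triangles for 3p products and squares for names without an arm; the solid line marks 0 and the dashed lines the 2-fold limits. miR528 and miR172 lie wholly below the lower limit, miR164, miR167 and miR169 are spread within the family, miR168 lies near 0, and miR166 spans -0.74 to 0.14.

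The remaining families of the list were counted as neither with the library total. miR166a-3p had 9969 RPM in CR, 11684 in PRO, 9618 in SR and 15878 in PRY. It was 1.17-fold lower in CR than in PRO (1.16 to 1.18), and its sign turned in 5 of the other 6 scalings. The 13 compared entries of miR166 lay between -0.74 and 0.14 on the log2 scale. miR159a-3p, of a family that acts on MYB transcripts, was at 103.3 RPM in PRO and 55.4 in CR, 1.86-fold lower (1.69 to 2.06). With -0.89 on the log2 scale it and the other 4 compared entries of miR159 lay just outside the limit, and they kept their sign in all 7 scalings. miR319b-3p, of a family that acts on TCP transcripts, was at 21.7 and 18.0 RPM, a ratio of 1.20 whose interval of 0.992 to 1.46 includes 1. miR171h-5p was at 19.7 RPM in PRO and 22.9 in CR. With the library total its ratio of 1.16 had an interval of 0.964 to 1.40, which includes 1. In the other scalings miR171h-5p lay between 0.39 and 0.93 on the log2 scale. It is a strand of a family known for acting on GRAS genes such as SCARECROW-like ones. miR396c, of a family that acts on growth-regulating factors, was at 51.1 and 62.8 RPM, 1.23-fold higher in CR (1.10 to 1.38), and CR was the highest of the 4 libraries.

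With the library total, 0 of 4 compared entries of the small RNA machinery list were counted, beside 30 of 95 over all miRNAs. The median of the list, -0.01, turned positive in all 6 other scalings. miR168a-5p, by which plants limit their own AGO1, ranked first in both, at 60102 RPM in PRO and 51319 in CR. It was 1.17-fold lower in CR (1.17 to 1.18), and its sign turned in 5 of the other 6 scalings. With the library total the star strands lay on the other side of 0: miR168b-3p was at 58.5 RPM in PRO and 67.5 in CR, 1.15-fold higher (1.04 to 1.28), and miR168a-3p at 17.5 and 22.5, 1.28-fold higher (1.06 to 1.56). The 3p share of miR168b, whose 5p reads equal those of miR168a, was 0.0973% in PRO (0.0899 to 0.105) and 0.131% in CR (0.122 to 0.141). miR162-3p, of the family that acts on DCL1, had 12 reads in PRO and 11 in CR.

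In the monocot list 3 entries were compared and none was counted with the library total, beside 30 of 95 over all miRNAs. Both entries of miR444 were counted as higher in the other 6 scalings. miR444a, which acts on MADS-box transcripts, had 74.7 RPM in CR, 38.7 in PRO, 55.0 in SR and 58.5 in PRY. CR was the highest library and PRO the lowest. It was 1.93-fold higher in CR than in PRO (1.72 to 2.18), just outside the limit with 0.93 on the log2 scale, and miR444b had the same values. miR1432-5p was at 13.9 RPM in PRO and 8.79 in CR, 1.58-fold lower (1.22 to 2.07), and turned sign in 1 of the other 6 scalings.

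No nutrient miRNA reached the minimum. miR395 acts on transcripts of ATP sulfurylase and a sulfate transporter, and miR395e-5p had 61 reads in CR and 51 in PRO, but 2 in SR and 1 in PRY. Both libraries of 15-day seedlings were above the younger ones, and between them the ratio of CR to PRO was 1.21 (0.821 to 1.79), an interval that includes 1. miR395e-3p had 62 reads in PRO and 47 in CR, a ratio of 1.30 in the other direction (0.877 to 1.95). miR827-3p, of a family that acts on SPX-domain transcripts, had 78 reads in PRO and 38 in CR, 2.03-fold lower in CR (1.36 to 3.07). miR399e-3p, which acts on the phosphate regulator PHO2, had 2 reads in PRO and 14 in CR, a ratio of 7.09 (1.63 to 64.3).

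The strands of a precursor can be set side by side where both are listed. Of 11 precursors with both strands compared, 5 had ratios of the same sign and 6 of opposite sign with the library total, while in the other 6 scalings those of opposite sign numbered from 2 (TMM factors) to 4 (DESeq2 size factors). In 2 precursors the strands differed by 1 or more on the log2 scale, namely miR167h and miR167i. These had the same 3p reads and nearly the same 5p reads, so they are 1 observation. As miR168a and miR168b had equal 5p reads, and miR172b and miR172d equal 3p reads, the tally of signs counts some reads more than once. Among the precursors with both strands lower in CR were miR172b and miR156b. Their strands miR172b-5p and miR156b-3p reached the minimum in PRO alone, so the difference of these strands went into their selection. The share of the 3p product of miR172b was 79.4% in PRO (77.2 to 81.5) and 85.4% in CR (81.0 to 89.1). As miR172c-3p and miR172d-3p had the same reads as miR172b-3p, this share too is not that of 1 precursor. In RefSeq's maize gene table (assembly Zm-B73-REFERENCE-NAM-5.0), 68 of the 73 compared precursors were found by name. In that assembly the genes of miR167a and miR167g, one from each set of values, lie within 10000 bases of each other.

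**Figure D5:**
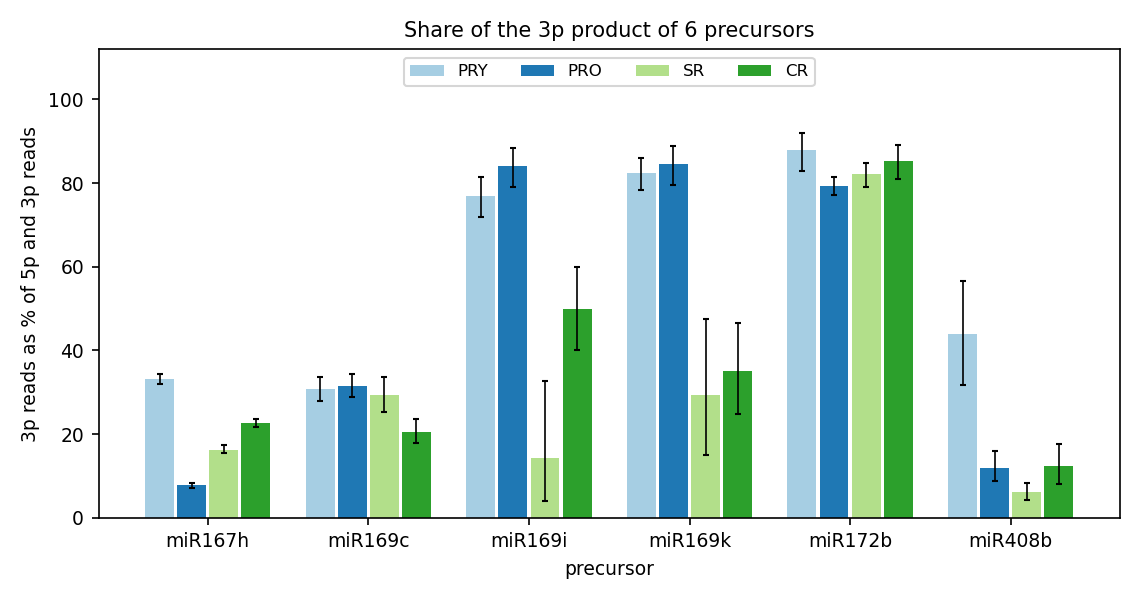
Reads of the 3p product as a percentage of 5p and 3p reads (vertical axis) for 6 precursors in the 4 libraries; bars are shares and lines 95% exact binomial intervals. The share of miR167h is 7.81% in PRO and 22.7% in CR, that of miR169k is 84.6% and 35.0%, and that of miR172b is 79.4% and 85.4%. Reads of a strand can come from several precursors, so a share is that of a pair of entries.

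The other 2 libraries place these differences. Of the 21 distinct miRNAs lower in CR, PRO was the highest of the 4 libraries for 9 and PRY for 12, and CR was the lowest for 13. Over all 76 distinct miRNAs, PRY was the highest for 35 and CR the lowest for 21. A miRNA lower in CR than in PRO cannot be highest in CR or lowest in PRO, so the order is partly fixed by the selection. PRO was highest while PRY was lowest for 5 of the 21: miR172a, miR172b-5p, miR172d-5p, miR156k-5p and miR164e-5p. PRO was highest while CR was lowest for 3: both entries of miR528 and miR390a-5p. PRY was highest and CR lowest for 10: miR156d-5p and the miR156 entries close to it in level, miR156b-3p and the lower candidate. The miR156 entries close in level had nearly the same reads and are not separate observations. The same holds within miR159, miR166, miR167 and miR528 and for the 5p strands of miR172. The counts over the 21 and the 76 thus take some reads more than once. Over all 76 distinct miRNAs, PRO was the highest library for 26 and CR for 13. Among those highest in CR were miR164a-5p, miR167b-3p, miR168b-3p, miR169a-5p, miR396c and miR444a, all counted as neither with the library total.

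Of the 11 candidates compared, 1 was higher in CR, 1 lower and 9 neither, beside 3 higher and 27 lower of 95 over all miRNAs. The higher candidate had 363 reads in CR, which is 33.2 RPM, and was listed at 0 in the other 3 libraries. If the listed 0 means no reads, it was at least 122.5-fold higher against a floor of 3 reads in PRO. The lower one had 11.0 RPM in CR, 26.5 in PRO, 20.7 in SR and 40.1 in PRY, 2.41-fold lower in CR than in PRO (1.94 to 3.01), and was counted in 2 of 7 scalings. The most abundant candidate reached 1122 RPM in CR, 1365 in PRO, 668.6 in SR and 285.7 in PRY. The ratio was 1.22 (1.19 to 1.25), lower in CR, and its sign turned in 4 of the other 6 scalings. Another 2 candidates were at or near 0 in PRY and above 10 RPM in both CR and PRO. One of them had 17.7 RPM in CR, 16.3 in PRO and 14.3 in SR, and 0 reads in PRY. The other had 13.2 RPM in CR and 11.2 in PRO, and was low in both SR and PRY, at 1.12 and 0.466 RPM.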

How the data were processed

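Per the labels' protocols, gel-selected RNA of 18 to 30 nt went through 18 cycles of PCR and Solexa sequencing. The protocol speaks of shoots as well as roots, and the labels of roots alone. Neither the aligner nor the miRNA reference nor the predictor of candidates is given in the sources used here. Values as deposited are called TPM in the file header and were treated as RPM: 100% were whole reads of a fixed library total within 0.01 read. Whether that total counts all or only filtered reads is not known.

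From these values log2((CR + 1)/(PRO + 1)) was computed for entries at 10 RPM or more in either library. Intervals are conditional binomial for ratios, Clopper-Pearson for shares and Poisson for levels. Without molecular identifiers, copies made by PCR count as separate reads. A floor of 3 reads was used against a library at 0. No count test was run, since 1 library a group leaves no spread. Scalings used TMM factors (edgeR 4.0.16), DESeq2 1.42.0 size factors and sums of miRNA reads. In the sums of distinct entries, only entries equal in all 4 libraries were taken once. Reads shared by nearly equal entries, as of miR156 and miR166, thus entered more than once. The TMM and DESeq2 factors used the same entries. The sum of each family's highest entry was chosen after seeing the data. Named were up to 12 miRNAs with the largest ratios in each direction, the highest entry of each listed family, opposite strands, the highest entry of uncompared nutrient and copper families, and those nearest the limit; any other was chosen after its values were seen. Members and lists were chosen with earlier results of these data known. The calls were tested on simulated counts that held counting error alone and changes beyond the 2-fold limit. These counts held no spread between libraries and no shift of scaling, so the test does not bear on either. Python 3.11.15, scipy 1.17.1 and R 4.3.3 were used. Candidates are described by their values.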

Additional observations from a re-analysis of the deposited data

How the results depend on the processing

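No paired analysis was possible because each group had 1 library, and leaving out a replicate was not possible for the same reason. With the library total 27 miRNAs were lower, 3 higher and the median was -0.31. Other scalings gave 13 lower, 5 higher and -0.05 with TMM factors; 24, 5 and -0.12 with DESeq2 size factors; 10, 10 and 0.28 with the sum of distinct entries; 11, 5 and 0.04 with that sum without miR156; 10, 14 and 0.44 without miR168; and 10, 10 and 0.11 with the highest entry of each family. The median thus turned positive in 4 of 6. Higher calls made up 3 of 30 with the library total and between 17.2% and 58.3% with the others. Without a minimum level, 390 entries gave 51 lower, 25 higher and a median of -0.07. A limit of 1.5-fold gave 41 lower and 10 higher. With the highest entry of each family and strand, 11 of 37 were lower. A pseudocount of 0.1 or 10, a minimum of 50 RPM, counting equal entries once and leaving out candidates kept both counts within 1.5 times and the sign of the median. None of the 30 compared miRNAs counted as higher or lower changed sign in any scaling, nor did the named ones among them with either pseudocount. Entries below the minimum were not recomputed.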

Other observations

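Several known miRNAs below the minimum differed between CR and PRO by more than counting error. They were chosen after their values were seen. miR160a-5p, the strand of its family that acts on auxin response factors, had 37 reads in PRO and 6 in CR, beside 33 in PRY and 7 in SR. It was 6.09-fold lower in CR (2.55 to 17.7), while miR160a-3p differed by 1.36-fold. miR159c-3p had 32 reads in PRO and 0 in CR, at least 10.5-fold lower in CR, with 4 in PRY and 2 in SR. The 5p strand miR159c-5p had 24 and 0 reads, at least 7.90-fold lower. miR172c-5p, with 40 reads in PRO and 4 in CR, was 9.88-fold lower (3.57 to 38.0), the same direction as the compared entries of miR172.

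Other rare entries were higher in CR. miR169g had 12 reads in PRO and 38 in CR, 3.21-fold higher (1.64 to 6.74). miR164f-5p had 22 and 46 reads, 2.12-fold higher (1.25 to 3.70), and lay on the side of miR164a-5p rather than of miR164e-5p. miR167j-3p had 3 reads in each of PRY, PRO and SR and 19 in CR. miR167g-3p went the other way, with 19 reads in PRO and 1 in CR. The 3p strands of miR167 g, h and j thus did not share 1 direction, although their 5p strands had nearly the same levels.

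Of the 255 candidates, 45 were listed above 0 in CR alone and 25 in PRO alone. Their median levels were 0.82 and 0.63 RPM. In both CR and PRO, 100 candidates were at 0. Over all 576 entries, 332 were above 0 in CR and 305 in PRO. Whether a listed 0 means no reads is not known. Aside from the one at 33.2 RPM, the highest of those in CR alone was at 7.78 RPM, against 1.36 RPM for PRO alone.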
